A study of Rattus norvegicus with 9 samples.

Results

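The genes described here were 10 antioxidant enzymes of rat cells, Nqo1, Hmox1, Gclc, Gclm, Txnrd1, Srxn1, Sod2, Sod3, Gpx3, and Cat, several of which are classical targets of the transcription factor NRF2. They were taken as a list of names and looked up by gene symbol, and all 10 were found among the 35362 genes of the deposited count table. The cells were mesenchymal stem cells grown from 3 fat depots of male Sprague Dawley rats aged 6 weeks, namely subcutaneous fat (SASCs), perirenal fat (PASCs), and epididymal fat (EASCs). RNA was sequenced at passage 3, in 3 samples of each group. The sources name no transgene or deletion, all rats were fasted and anesthetized with isoflurane before the fat was taken, and the labels set the groups apart by the depot alone. The methods describe 6 replicate wells in each group, where 3 samples are used here, and do not say whether the wells came from different animals, so p-values measure only the spread between these samples, which may be technical.

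NRF2, encoded by Nfe2l2, is held in the cytoplasm and marked for degradation by KEAP1 together with the ubiquitin ligase scaffold CUL3. When oxidants or electrophiles modify KEAP1, NRF2 builds up, enters the nucleus, pairs with a small MAF protein, and switches on genes that carry an antioxidant response element (ARE), while BACH1 represses part of the same genes, Hmox1 above all. Among the 10 enzymes, Nqo1 and Hmox1 deal with quinones and heme, Gclc and Gclm start glutathione synthesis, Txnrd1 and Srxn1 keep the thioredoxin and peroxiredoxin systems reduced, and Sod2, Sod3, Gpx3, and Cat remove superoxide and peroxides.

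The antioxidant response element was looked for in the promoters of the genes, from 250 bases before to 50 bases after the transcription start, as RefSeq gives them on the GRCr8 assembly. The motif searched was TGACNNNGC, the core of the ARE, on both strands, and it was present in 12.1% of 33469 rat promoters and in 14.6% of 11107 promoters of the genes tested here. Of the 10 genes, 8 had an entry, with 9 promoters in all, and 3 of these 9 held the motif. Those 3 promoters, of Gclm, of the second listed start of Txnrd1, and of Sod2, are printed 5′ to 3′ in the direction of the gene, with the match in capitals, because they are the ones among the 9 that held the motif. All 3 matches were on the strand opposite to the gene, so the letters appear as the reverse complement. The promoter of Nqo1, the gene with the largest increase, is printed with them and held no match in this window, which says only that these letters are not in these 300 bases.
Gclm promoter, chr2:213031885-213032184, plus strand, GRCr8: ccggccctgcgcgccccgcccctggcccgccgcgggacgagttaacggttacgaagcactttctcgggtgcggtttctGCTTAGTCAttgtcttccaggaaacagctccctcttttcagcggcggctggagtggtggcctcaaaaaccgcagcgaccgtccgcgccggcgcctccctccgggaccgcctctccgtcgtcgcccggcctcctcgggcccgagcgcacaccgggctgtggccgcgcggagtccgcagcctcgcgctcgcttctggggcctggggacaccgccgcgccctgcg
Txnrd1 promoter (second start), chr7:22755855-22756154, minus strand, GRCr8: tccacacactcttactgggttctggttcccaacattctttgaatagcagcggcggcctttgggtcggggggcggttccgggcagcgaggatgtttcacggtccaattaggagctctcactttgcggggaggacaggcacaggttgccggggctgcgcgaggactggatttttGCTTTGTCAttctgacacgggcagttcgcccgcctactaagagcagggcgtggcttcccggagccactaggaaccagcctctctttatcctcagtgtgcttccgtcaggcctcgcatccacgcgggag
Sod2 promoter, chr1:50050119-50050418, minus strand, GRCr8: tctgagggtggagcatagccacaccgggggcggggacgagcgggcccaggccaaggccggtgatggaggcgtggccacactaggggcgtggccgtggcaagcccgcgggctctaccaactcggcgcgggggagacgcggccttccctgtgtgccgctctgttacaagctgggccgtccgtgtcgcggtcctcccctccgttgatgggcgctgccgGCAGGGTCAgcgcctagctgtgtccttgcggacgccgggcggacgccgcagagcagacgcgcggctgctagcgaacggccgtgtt
Nqo1 promoter, chr19:52220218-52220517, minus strand, GRCr8: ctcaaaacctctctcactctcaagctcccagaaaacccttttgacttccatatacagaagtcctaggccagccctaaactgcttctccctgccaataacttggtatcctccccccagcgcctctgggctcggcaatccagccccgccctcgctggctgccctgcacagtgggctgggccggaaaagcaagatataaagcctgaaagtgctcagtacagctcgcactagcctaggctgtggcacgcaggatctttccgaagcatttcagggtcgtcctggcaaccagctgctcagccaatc

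The samples held from 17591916 to 30299032 counts, and the share of ribosomal RNA genes was 10.4% to 15.5% in SASCs samples, 22.4% to 32.9% in those of PASCs, and 15.9% to 40.3% in those of EASCs. Levels are given as CPM (a gene's counts divided by the scaled library total, times 1e6) after scaling by edgeR's TMM factors, which lie between 0.740 and 1.23. With library totals in place of TMM the median log2 fold change of all genes tested moved to -0.39 in EASCs and -0.33 in PASCs against SASCs, so that changes smaller than this depended on the scaling. The 10 mesenchymal markers were all detected, with a summed CPM of 20660 to 21977 for SASCs, 30611 to 36652 for PASCs, and 31674 to 34855 for EASCs, most of it from the collagen genes Col1a1 and Col3a1. The summed CPM of 6 adipocyte markers ranged over 1780 to 1858 for SASCs, 122 to 152 for PASCs, and 120.2 to 124 for EASCs, most of it from Lpl. That of 10 macrophage and leukocyte markers was 78.8 to 87.5, 135 to 140.1, and 221 to 231 in the same order, that of 7 endothelial markers was 54.9 to 56.1, 13.9 to 17.0, and 37.8 to 40.7, and that of 7 mesothelial markers was 20.0 to 21.4, 97.7 to 105, and 130 to 141. No marker was at 0 in all samples.

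Against SASCs, the 10 genes did not move in one direction. The heme-degrading enzyme Hmox1 and the enzymes that remove superoxide and peroxides, Sod2, Sod3, Gpx3, and Cat, were lower in both PASCs and EASCs. The NADPH quinone reductase Nqo1 was higher in both, and Gclm and Txnrd1 were slightly higher in both, which depended on the scaling. With library totals without TMM, the log2 fold change of Gclm turned to -0.070 in EASCs, and Gclm in PASCs and Txnrd1 in both no longer passed. Gclc was higher in PASCs and lower in EASCs, and Srxn1 was higher in PASCs with no difference detected in EASCs. All 10 genes passed the filter on low counts, with 331 counts or more in every sample, and were tested with edgeR's quasi-likelihood test. A gene is said to have risen or fallen at an adjusted p under 0.05 (Benjamini-Hochberg, over all 14770 genes tested) and is called a differentially expressed gene (DEG) where its fold change was also above 2. In bulk RNA, fewer cells of a type and less RNA per cell cannot be told apart.

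In EASCs against SASCs, 5 of the 10 genes were downregulated DEGs (Hmox1, Sod2, Sod3, Gpx3, and Cat) where 14.2% of all genes tested were, and none was an upregulated DEG, against 13.5% of all genes. At any fold, 3 rose and 6 fell, beside 35.5% and 34.3% of all genes. In PASCs against SASCs, 4 were downregulated DEGs (Hmox1, Sod2, Sod3, and Gpx3), beside 14.9% of all genes, and Nqo1 was the 1 upregulated DEG, beside 12%. At any fold, 5 rose and 5 fell, beside 34.6% of all genes in each direction. The samples did not overlap for 9 of the 10 genes in EASCs against SASCs and for all 10 in PASCs against SASCs, while 72.1% and 71.6% of all genes tested had no overlap. Both comparisons use the same SASCs samples and are therefore not independent. The median log2 fold change of the 10 genes was -0.66 in EASCs and -0.30 in PASCs against SASCs, where that of all genes was 0.01 and -0.01.

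**Figure D1:**
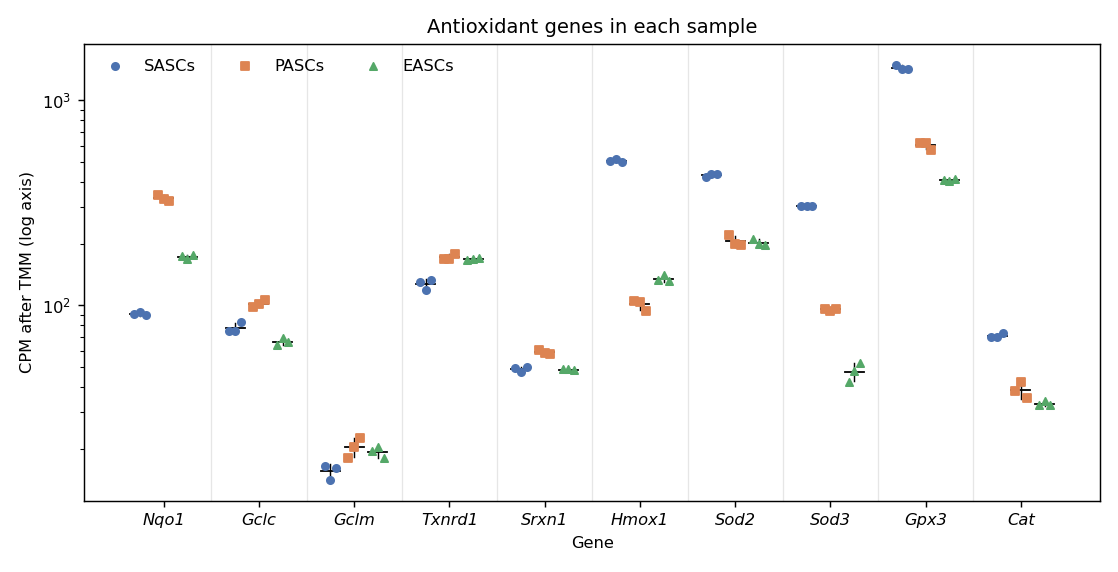
CPM after TMM (log axis) of the 10 genes in each sample, with SASCs as circles, PASCs as squares, and EASCs as triangles, the bar at the mean, and the vertical line as the SD of 3 samples. Hmox1, Sod2, Sod3, Gpx3, and Cat lie highest in SASCs, and Nqo1 lies highest in PASCs.

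Nqo1, which reduces quinones with NAD(P)H (chr19:38422210-38437103, plus strand, rn6), had 90.3, 92.7, and 89.1 CPM in the 3 SASCs samples. In PASCs it had 346, 331, and 324 CPM, and in EASCs 174, 168, and 175 CPM. The 3 groups were fully separated, with EASCs between the other groups. Nqo1 was 3.68-fold higher in PASCs than in SASCs, a log2 fold change of 1.88 (SE 0.0536, adjusted p = 1.48e-21) by edgeR's quasi-likelihood test. In EASCs it was 1.90-fold higher, with a log2 fold change of 0.92 (SE 0.0531, adjusted p = 9.62e-15), which is below the fold threshold of a DEG. Between the visceral depots it was lower in EASCs than in PASCs, by a log2 fold change of -0.95 (SE 0.0518, adjusted p = 2.38e-14).

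Hmox1, the heme oxygenase that cleaves heme to biliverdin, iron, and carbon monoxide (chr19:14508634-14515455, plus strand), followed the opposite order. Its CPM was 507, 516, and 497 in the SASCs samples, 105, 104, and 94.3 in the PASCs samples, and 133, 140.4, and 131 in the EASCs samples. Every SASCs sample lay above every PASCs and EASCs sample, and the EASCs samples lay above the PASCs samples. The level was 5.00-fold lower in PASCs and 3.76-fold lower in EASCs than in SASCs. The log2 fold changes were -2.32 (SE 0.0576, adjusted p = 6.53e-23) and -1.91 (SE 0.0566, adjusted p = 2.86e-21) by the same test. EASCs exceeded PASCs by a log2 fold change of 0.41 (SE 0.0566, adjusted p = 1.53e-06).

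The ratio of Nqo1 to Hmox1 counts within a sample is free of any scaling between samples. It was 0.178, 0.180, and 0.179 in the SASCs samples, 3.29, 3.18, and 3.44 in the PASCs samples, and 1.30, 1.19, and 1.34 in the EASCs samples. In SASCs Hmox1 counts exceeded Nqo1 counts in every sample, and in PASCs and EASCs Nqo1 counts exceeded Hmox1 counts in every sample. The means were 0.179 ± 0.000775, 3.30 ± 0.129, and 1.28 ± 0.0754 (SD, n = 3).

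**Figure D2:**
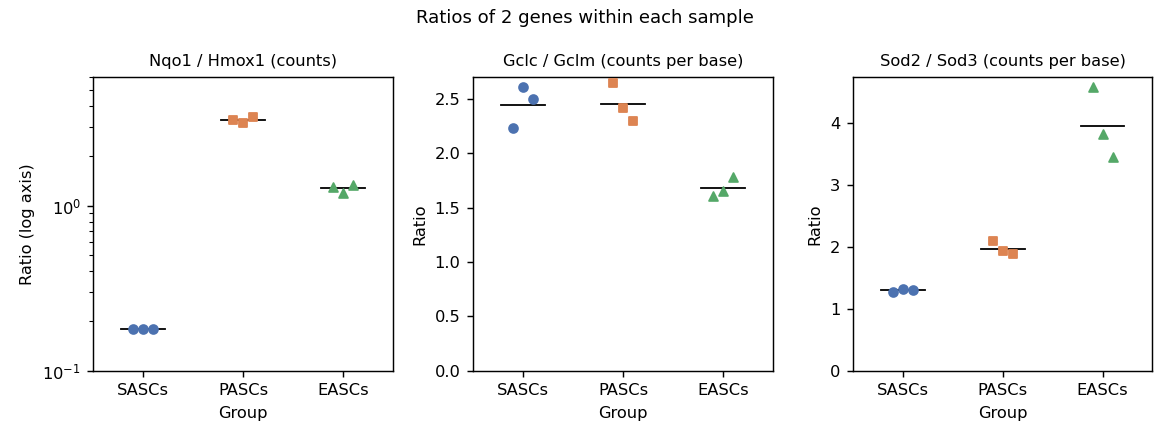
Ratio of the counts of 2 genes within each sample for Nqo1 to Hmox1 (log axis), Gclc to Gclm, and Sod2 to Sod3 (both per base of gene length), with the bar at the mean of 3 samples. The Nqo1 to Hmox1 ratio is lowest in SASCs and highest in PASCs, Gclc to Gclm is lower in EASCs than in the other groups, and Sod2 to Sod3 is highest in EASCs.

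Gclc and Gclm encode the catalytic and the modifier subunit of glutamate-cysteine ligase, the first and rate-limiting enzyme of glutathione synthesis. Gclc (chr8:85059051-85097471, plus strand) had 75.0, 75.0, and 82.7 CPM in SASCs, 98.1, 101, and 106 CPM in PASCs, and 63.9, 69.1, and 65.9 CPM in EASCs. The groups did not overlap, with PASCs highest and EASCs lowest. Its log2 fold change was 0.39 (SE 0.0588, adjusted p = 1.54e-06) in PASCs against SASCs, -0.23 (SE 0.0597, adjusted p = 0.00158) in EASCs against SASCs, and -0.62 (SE 0.0593, adjusted p = 3.05e-09) in EASCs against PASCs. Under other settings and with samples left out, the value in EASCs against SASCs ranged from -0.615 to -0.179. Gclc overlaps LOC102554595 on the same strand, which had 39 to 238 counts, and reads of this locus could have been counted for either gene.

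Gclm (chr2:225827504-225847876, plus strand), whose promoter holds an ARE core, had 16.4, 14.04, and 16.1 CPM in SASCs, 18.1, 20.4, and 22.4 CPM in PASCs, and 19.4, 20.4, and 18.0 CPM in EASCs. Both visceral groups lay above SASCs in every sample and overlapped each other. It rose by a log2 fold change of 0.38 (SE 0.0983, adjusted p = 0.00118) in PASCs and 0.31 (SE 0.0985, adjusted p = 0.00645) in EASCs. No difference was detected between EASCs and PASCs, with a log2 fold change of -0.07 and a 95% confidence interval of -0.27 to 0.13 (adjusted p = 0.638). Per base of gene length, the ratio of Gclc to Gclm was 2.24, 2.61, and 2.501 in the SASCs samples, 2.65, 2.42, and 2.30 in the PASCs samples, and 1.61, 1.65, and 1.79 in the EASCs samples. All EASCs samples were below all other samples, and the SASCs and PASCs samples overlapped, with means of 2.45 ± 0.192 and 2.45 ± 0.179 beside 1.68 ± 0.0934 in EASCs (SD, n = 3).

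Txnrd1, the cytosolic thioredoxin reductase (chr7:26946124-26984400, minus strand), had 130.02, 119, and 133 CPM in SASCs, 169, 168, and 178 CPM in PASCs, and 167, 168, and 171 CPM in EASCs. All PASCs and EASCs samples lay above all SASCs samples, and the visceral groups overlapped. It rose by 0.43 (SE 0.0546, adjusted p = 8.35e-08) in PASCs and by 0.41 (SE 0.0546, adjusted p = 2.53e-07) in EASCs on the log2 scale. Between EASCs and PASCs the log2 fold change was -0.03, with a 95% confidence interval of -0.14 to 0.08 (adjusted p = 0.759). Eid3, on the same strand, and LOC103692814, on the other, overlap Txnrd1 and had 9 to 82 and 52 to 105 counts.

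Srxn1, the sulfiredoxin that restores overoxidized peroxiredoxins (chr3:147603969-147632824, plus strand), had 49.3, 47.1, and 49.8 CPM in SASCs, 60.3, 58.6, and 57.8 CPM in PASCs, and 48.9, 48.8, and 48.1 CPM in EASCs. The PASCs samples lay above all others, and the SASCs and EASCs samples overlapped. Srxn1 rose in PASCs by a log2 fold change of 0.27 (SE 0.05997, adjusted p = 2.36e-04). No difference was detected between EASCs and SASCs, where the 95% confidence interval of the log2 fold change was -0.13 to 0.12 (adjusted p = 0.949). It was lower in EASCs than in PASCs by a log2 fold change of -0.28 (SE 0.06002, adjusted p = 6.45e-04). The small increases of Gclc, Gclm, Txnrd1, and Srxn1 were of the size that the scaling moved. With library totals without TMM the log2 fold change of Gclm was -0.070 in EASCs and that of Srxn1 was -0.050 in PASCs against SASCs, both of the opposite sign, and the increases of Gclc (0.07), Gclm (0.07), and Txnrd1 (0.11) in PASCs and of Txnrd1 (0.01) in EASCs no longer passed. Under the same scaling Srxn1 fell in EASCs against SASCs (log2 fold change -0.40), where the median of all genes was -0.39.

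Sod2, the mitochondrial manganese superoxide dismutase (chr1:47914757-47921587, minus strand), had 423, 437, and 434 CPM in SASCs, 220.0, 198, and 197 CPM in PASCs, and 211, 199, and 196 CPM in EASCs. The SASCs samples stood above all others, and the visceral groups overlapped. The log2 fold change was -1.07 (SE 0.0562, adjusted p = 1.30e-15) in PASCs and -1.10 (SE 0.0562, adjusted p = 7.72e-16) in EASCs against SASCs. EASCs differed from PASCs by -0.02 on the log2 scale, with a 95% confidence interval of -0.14 to 0.09 (adjusted p = 0.807). The promoter of Sod2 holds an ARE core, as that of Gclm does.

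Sod3, the extracellular copper and zinc superoxide dismutase (chr14:60958583-60971151, minus strand), showed the widest range of the superoxide dismutases measured here. It had 305, 305, and 306 CPM in SASCs, 96.1, 93.9, and 96.3 CPM in PASCs, and 42.4, 47.8, and 52.2 CPM in EASCs. The 3 groups were fully separated in this order. The level was 3.19-fold lower in PASCs and 6.43-fold lower in EASCs than in SASCs, with log2 fold changes of -1.68 (SE 0.0598, adjusted p = 2.11e-19) and -2.68 (SE 0.0631, adjusted p = 1.61e-23). It was 2.01-fold lower in EASCs than in PASCs, with a log2 fold change of -1.01 (SE 0.0626, adjusted p = 4.07e-13), just past the fold threshold. Without EASCs replicate 1 this value was -0.93, and Sod3 was no longer a DEG between the visceral depots. Per base of gene length, the ratio of Sod2 to Sod3 was 1.28, 1.32, and 1.31 in the SASCs samples, 2.11, 1.94, and 1.88 in the PASCs samples, and 4.58, 3.82, and 3.45 in the EASCs samples, and the groups did not overlap.

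Gpx3, the secreted selenium-dependent glutathione peroxidase (chr10:40247436-40255423, plus strand), had 1489.7, 1425, and 1415 CPM in SASCs, 616, 617, and 574 CPM in PASCs, and 408, 405, and 415 CPM in EASCs. As for Sod3, the groups did not overlap, with SASCs highest and EASCs lowest. It was 2.40-fold lower in PASCs and 3.53-fold lower in EASCs than in SASCs, with log2 fold changes of -1.26 (SE 0.0544, adjusted p = 1.60e-17) and -1.82 (SE 0.0553, adjusted p = 5.32e-21). The difference between EASCs and PASCs was -0.56 (SE 0.0540, adjusted p = 3.21e-09) on the log2 scale.

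Cat, the peroxisomal catalase (chr3:93379872-93412058, minus strand), had 70.3, 70.4, and 72.9 CPM in SASCs, 38.0, 42.3, and 35.4 CPM in PASCs, and 32.7, 34.0, and 32.6 CPM in EASCs. The SASCs samples lay above all others, and the lowest PASCs sample lay above the highest EASCs sample. Cat was 2.15-fold lower in EASCs than in SASCs, a log2 fold change of -1.10 (SE 0.0681, adjusted p = 4.68e-14). In PASCs it was 1.84-fold lower, with a log2 fold change of -0.88 (SE 0.0673, adjusted p = 4.82e-12), short of the fold threshold of a DEG. In EASCs the level was below that of PASCs (log2 fold change -0.22, SE 0.0699, adjusted p = 0.0156), and without PASCs replicate 2 this difference no longer passed (log2 fold change -0.15, adjusted p = 0.166). The adipocyte markers Adipoq, Plin1, and Fabp4 had mean CPM of 27.2, 27.9, and 35.2 for SASCs, 9.68, 3.66, and 5.69 for PASCs, and 4.25, 1.27, and 3.83 for EASCs, in the same direction as Hmox1, Sod2, Sod3, Gpx3, and Cat. Of the mesenchymal markers, Pdgfra, with 1542, 278, and 235 CPM, and Pdgfrb, with 442, 317, and 336 CPM, were also lower in PASCs and EASCs. Eng, Cd44, Itgb1, Col1a1, Col1a2, and Col3a1 were higher in both. Thy1 and Nt5e differed in direction between PASCs and EASCs. The part of these markers in the differences of the antioxidant genes was not tested.

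**Figure D3:**
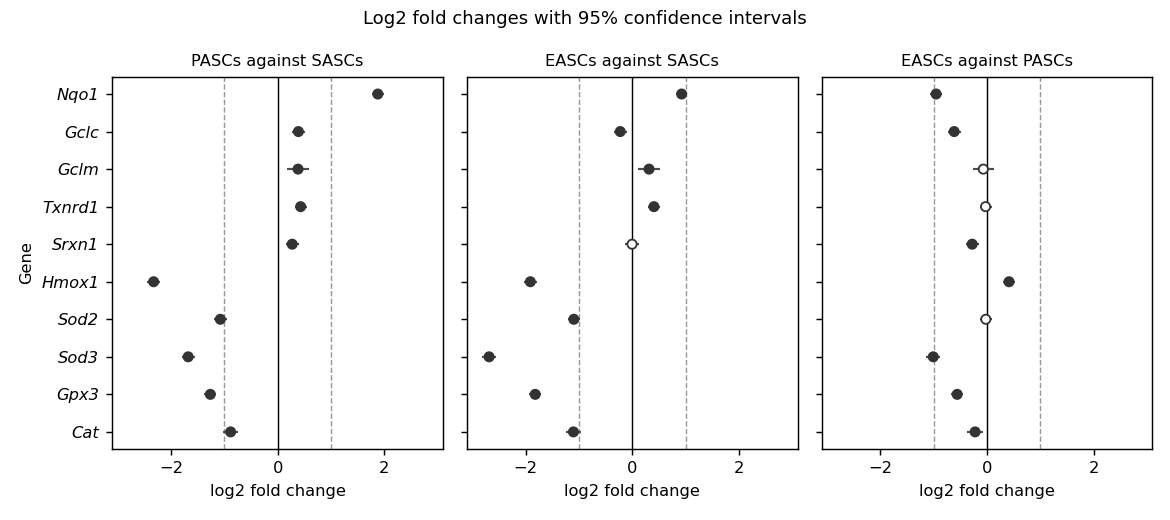
Log2 fold changes of the 10 genes with 95% confidence intervals in the 3 comparisons, with filled points where the adjusted p is under 0.05 and dashed lines at a fold change of 2. Hmox1, Sod2, Sod3, and Gpx3 lie left of the dashed line in both comparisons with SASCs, and Sod3 alone reaches it in EASCs against PASCs.

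Between the visceral depots fewer of the genes were DEGs. Sod3 was the 1 downregulated DEG in EASCs against PASCs, beside 2.2% of all genes, and there was no upregulated one, beside 5.19%. At any fold, Hmox1 rose and 6 genes fell (Nqo1, Gclc, Srxn1, Sod3, Gpx3, and Cat), beside 16.1% and 14.5% of all genes. The samples did not overlap for these 7 genes, as for 41.2% of all genes tested. With library totals without TMM, the differences of Hmox1 (0.35), Srxn1 (-0.35), and Cat (-0.28) did not pass. The median log2 fold change was -0.25 for the 10 genes and -0.01 for all genes.

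Levels of different genes were compared as CPM per kilobase of the gene length in the table. Gpx3 had the highest level of the 10 in every group, with 981 ± 27.4 in SASCs, 409 ± 16.6 in PASCs, and 278 ± 3.401 in EASCs (SD, n = 3). In SASCs it was followed by Hmox1 with 328 ± 6.23, Sod2 with 209 ± 3.64, and Sod3 with 160.5 ± 0.293 CPM per kilobase, and Nqo1 was the fifth with 62.3 ± 1.27. In PASCs and EASCs Nqo1 was the second with 229 ± 7.75 and 118 ± 2.68, ahead of Sod2 with 99.3 ± 6.28 and 97.8 ± 4.02 and Hmox1 with 65.4 ± 3.89 and 87.1 ± 3.26. Gclm had the lowest level in each group, with 10.4 ± 0.862, 13.7 ± 1.47, and 12.96 ± 0.810 CPM per kilobase in SASCs, PASCs, and EASCs. In PASCs Sod3 (50.2 ± 0.721) and Txnrd1 (50.02 ± 1.597) lay within each other's spread, as did Cat (13.03 ± 0.312) and Gclm in EASCs.

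The regulators of NRF2 were read in the same samples. Nfe2l2, which encodes NRF2, had 283, 283, and 279.9 CPM in SASCs, 198, 204, and 206 CPM in PASCs, and 163, 158, and 164 CPM in EASCs. The groups did not overlap, and the log2 fold change was -0.48 (SE 0.0504, adjusted p = 3.11e-09) in PASCs and -0.80 (SE 0.0508, adjusted p = 7.75e-14) in EASCs against SASCs. Keap1, the adaptor that targets NRF2 for degradation, had 33.7, 40.6, and 34.3 CPM in SASCs, 48.3, 42.6, and 44.8 CPM in PASCs, and 34.4, 32.0, and 36.7 CPM in EASCs. It rose in PASCs (log2 fold change 0.32, adjusted p = 6.89e-04) and was not detectably different in EASCs (log2 fold change -0.08, adjusted p = 0.406, 95% confidence interval -0.24 to 0.09). Bach1, the repressor of Hmox1, had 30.0, 34.4, and 36.8 CPM in SASCs, 21.4, 22.9, and 23.3 CPM in PASCs, and 30.8, 33.6, and 29.3 CPM in EASCs. Bach1 fell in PASCs (log2 fold change -0.58, adjusted p = 7.88e-07), and in EASCs its log2 fold change was -0.11 (adjusted p = 0.254). With library totals without TMM the median of all genes moved to -0.33 in PASCs and -0.39 in EASCs against SASCs. The changes of Keap1 in both groups and of Bach1 in EASCs were no larger than this shift, so their calls may depend on the scaling. Of the small MAF partners, Mafk rose from 36.2 ± 1.36 CPM in SASCs to 77.4 ± 5.35 in PASCs and 98.2 ± 4.88 in EASCs (SD, n = 3), with log2 fold changes of 1.10 (adjusted p = 1.78e-14) and 1.44 (adjusted p = 3.51e-17). Mafg, another small MAF, chosen after its values were seen, had 132 ± 4.83, 86.0 ± 4.55, and 96.1 ± 3.58 CPM and fell in both (log2 fold change -0.62, adjusted p = 2.57e-10 and -0.46, adjusted p = 6.60e-08). In the list of 9 regulators, 4 rose and 3 fell in PASCs, beside 34.6% of all genes tested in each direction, and 3 rose and 3 fell in EASCs, beside 35.5% and 34.3%, and Mafk was the 1 DEG in each comparison, where 12% of all genes in PASCs and 13.5% in EASCs were upregulated DEGs.

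Of 21 further NRF2 targets, the table holds 20, and 19 passed the filter. In PASCs 10 rose and 6 fell against SASCs, beside 34.6% of all genes tested in each direction, and in EASCs 9 rose and 7 fell, beside 35.5% and 34.3%, with median log2 fold changes of 0.31 and 0.23. Of these genes, 2 were upregulated and 2 downregulated DEGs in each comparison, beside 12% and 14.9% of all genes in PASCs and 13.5% and 14.2% in EASCs. Me1, a malic enzyme that supplies NADPH, rose from 47.2 ± 2.28 CPM in SASCs to 100.0 ± 3.46 in PASCs and 137 ± 4.12 in EASCs, with log2 fold changes of 1.08 (adjusted p = 2.58e-15) and 1.53 (adjusted p = 8.93e-19). Mgst1, a microsomal glutathione transferase, fell from 40.6 ± 1.48 CPM to 5.96 ± 1.21 and 7.08 ± 0.332, with log2 fold changes of -2.75 (adjusted p = 2.72e-18) and -2.52 (adjusted p = 1.20e-17). Gsta4, a glutathione transferase for lipid aldehydes, had 2.90 ± 0.0803, 1.62 ± 0.0199, and 1.03 ± 0.252 CPM and was a DEG in EASCs (log2 fold change -1.48, adjusted p = 1.92e-05). Fth1, the ferritin heavy chain that stores the iron set free by heme breakdown, had 1917 ± 139 CPM in SASCs, 828 ± 19.6 in PASCs, and 1057 ± 47.2 in EASCs. As for Hmox1, Fth1 was lowest in PASCs, with log2 fold changes of -1.21 (adjusted p = 4.37e-16) and -0.86 (adjusted p = 6.90e-13) in PASCs and EASCs against SASCs. Ftl1, the ferritin light chain, chosen after its values were seen, went the other way with 1118 ± 53.2, 1898 ± 94.0, and 1783 ± 68.5 CPM and rose in both (log2 fold change 0.76, adjusted p = 6.69e-12 and 0.67, adjusted p = 8.83e-11). Fth1 overlaps Best1 and Fads2 on the other strand and both ferritin genes may share reads with pseudogenes, so their levels are uncertain.

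In the glutathione list, 24 of 25 genes were tested. In EASCs 5 rose and 15 fell against SASCs, beside 35.5% and 34.3% of all genes tested, and in PASCs 6 rose and 11 fell, beside 34.6% in each direction. Upregulated and downregulated DEGs numbered 1 and 9 in EASCs, beside 13.5% and 14.2% of all genes, and 1 and 5 in PASCs, beside 12% and 14.9%. Ggt5, a gamma-glutamyl transferase that acts on extracellular glutathione conjugates, fell to 2.86 ± 0.294 CPM in EASCs from 37.9 ± 3.89 in SASCs and 24.1 ± 3.06 in PASCs, a log2 fold change of -3.73 (adjusted p = 4.33e-20) against SASCs and -3.07 (adjusted p = 7.59e-17) against PASCs. Chac1, which degrades glutathione in the cytosol, rose from 7.08 ± 1.96 CPM in SASCs to 43.5 ± 0.574 in PASCs and 38.2 ± 2.85 in EASCs, with log2 fold changes of 2.59 (adjusted p = 2.36e-17) and 2.40 (adjusted p = 1.39e-16). Gstt2, a glutathione transferase, was at 2.36 ± 0.117, 0.648 ± 0.402, and 0.788 ± 0.0931 CPM and fell in both (log2 fold change -1.93, adjusted p = 3.44e-05 and -1.57, adjusted p = 2.49e-04). Genes of this family resemble each other, and how reads shared between them were counted is not given in the sources used here.

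Most genes of the list of superoxide and peroxide removal rose where Sod2, Sod3, Gpx3, and Cat fell. The list holds the other peroxidases, peroxiredoxins, and Sod1, and also 4 methionine sulfoxide reductases, which repair oxidized proteins, the copper chaperone Ccs, the matrix peroxidase Pxdn, and Park7. Of these 18 genes, 16 rose and none fell in EASCs against SASCs, and 15 rose and none fell in PASCs, with median log2 fold changes of 0.71 and 0.50. Some of these increases, such as that of Gpx4 (log2 fold change 0.34 in EASCs and 0.30 in PASCs), were smaller than the scaling shift. With library totals without TMM the median of all genes moved to -0.39 in EASCs and -0.33 in PASCs, so these counts depended on the scaling. Among all genes tested, 35.5% rose and 34.3% fell in EASCs, and 34.6% did each in PASCs. The number of DEGs was 5 in EASCs and 3 in PASCs, all upregulated, beside 13.5% and 12% of all genes, and in EASCs it was 2 with library totals without TMM. Gpx1, the cytosolic glutathione peroxidase, rose from 76.0 ± 5.15 CPM in SASCs to 193 ± 9.18 in PASCs and 221 ± 10.2 in EASCs, with log2 fold changes of 1.35 (adjusted p = 3.10e-17) and 1.54 (adjusted p = 1.46e-18), where the secreted Gpx3 fell. Prdx5, a peroxiredoxin, had 324 ± 26.3, 813 ± 50.3, and 697 ± 40.4 CPM and rose in both (log2 fold change 1.33, adjusted p = 2.51e-16 and 1.10, adjusted p = 1.27e-14). Msrb3, a methionine sulfoxide reductase, rose likewise from 66.7 ± 4.31 to 159 ± 7.06 and 183 ± 10.0 CPM (log2 fold change 1.26, adjusted p = 2.01e-16 and 1.45, adjusted p = 7.31e-18). Pxdn, the peroxidase that crosslinks collagen IV, had 200.5 ± 4.82, 247 ± 16.2, and 466 ± 39.1 CPM and was a DEG in EASCs (log2 fold change 1.22, adjusted p = 6.60e-16).

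**Figure D4:**
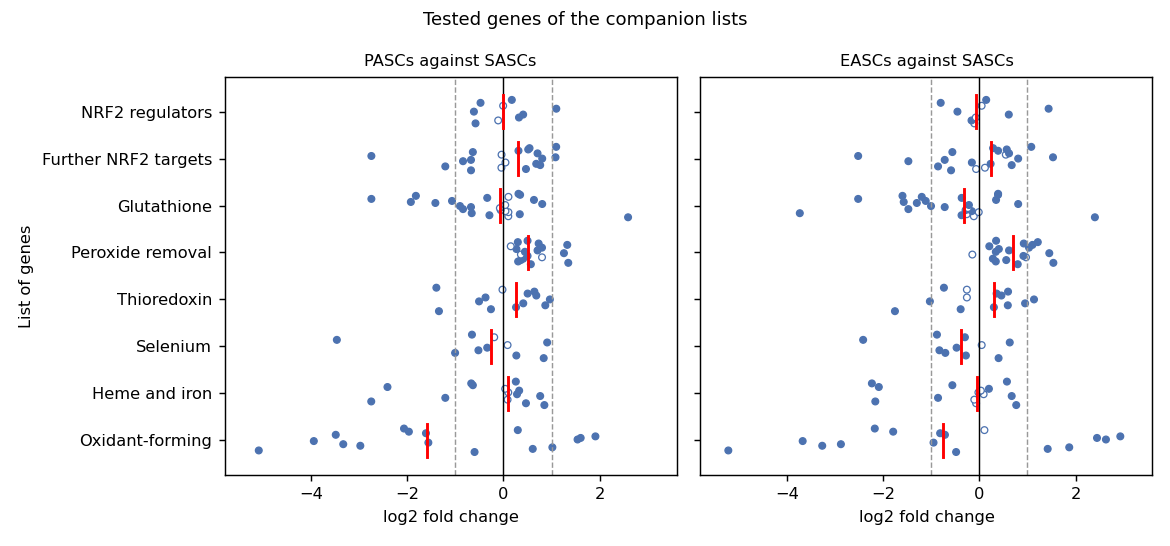
Log2 fold change of each tested gene of the 8 companion lists in PASCs and EASCs against SASCs, with filled points where the adjusted p is under 0.05, the red bar at the median of the list, and dashed lines at a fold change of 2. Most genes of the peroxide removal list lie right of 0, with medians of 0.50 and 0.71, and the oxidant-forming enzymes have medians of -1.59 and -0.77.

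Around Txnrd1 and Srxn1, the thioredoxin and glutaredoxin list had 13 genes, of which 7 rose and 4 fell in EASCs and 7 rose and 5 fell in PASCs against SASCs. The shares of all genes tested that rose and fell were 35.5% and 34.3% in EASCs and 34.6% each in PASCs. Glrx, a glutaredoxin, fell from 41.9 ± 2.31 CPM in SASCs to 16.6 ± 0.894 in PASCs and 12.4 ± 0.920 in EASCs (log2 fold change -1.34, adjusted p = 5.72e-14 and -1.76, adjusted p = 2.78e-16). Txnrd3, a paralog of Txnrd1, had 7.43 ± 0.360, 2.86 ± 0.535, and 4.46 ± 0.225 CPM and was a DEG in PASCs (log2 fold change -1.40, adjusted p = 2.97e-08), in the opposite direction to Txnrd1. Sesn2 and Sesn1 encode sestrins, stress-induced proteins. Sesn2 rose in PASCs and EASCs (log2 fold change 0.96, adjusted p = 2.72e-12 and 1.14, adjusted p = 7.15e-14), and Sesn1 fell in both (log2 fold change -0.51, adjusted p = 1.39e-04 and -1.03, adjusted p = 4.35e-09).

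Gpx3 and Txnrd1 are selenoproteins, and of 12 genes of selenium supply and selenoprotein synthesis, 10 were tested. Of these, 2 rose and 7 fell in EASCs against SASCs, beside 35.5% and 34.3% of all genes tested, and 3 rose and 5 fell in PASCs, beside 34.6% in each direction. Sepp1, the secreted selenium carrier, fell from 412 ± 24.8 CPM in SASCs to 37.5 ± 4.98 in PASCs and 77.2 ± 4.27 in EASCs, with log2 fold changes of -3.47 (adjusted p = 3.61e-24) and -2.42 (adjusted p = 2.01e-21). Ccdc152 overlaps Sepp1 on the other strand and had 127 to 2257 counts, and without a stated strand setting reads of the pair cannot be told apart. Pstk, a kinase of selenocysteine synthesis, had 6.45 ± 0.662, 3.27 ± 1.12, and 3.93 ± 0.450 CPM and was a DEG in PASCs (log2 fold change -1.01, adjusted p = 5.10e-05).

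Of the genes of heme breakdown and iron handling around Hmox1, 14 of 15 were tested. In PASCs 6 rose and 5 fell against SASCs, beside 34.6% of all genes tested in each direction, and in EASCs 4 rose and 5 fell, beside 35.5% and 34.3%. The list held 3 DEGs in each comparison, all downregulated, where 14.9% of all genes in PASCs and 14.2% in EASCs were downregulated DEGs. Cp, the ferroxidase ceruloplasmin, fell from 45.5 ± 1.59 CPM in SASCs to 6.87 ± 1.68 in PASCs and 10.1 ± 1.21 in EASCs (log2 fold change -2.75, adjusted p = 1.12e-17 and -2.16, adjusted p = 7.09e-16). Slc40a1, the iron exporter ferroportin, had 6.55 ± 0.529, 1.22 ± 0.348, and 1.52 ± 0.456 CPM and fell in both (log2 fold change -2.41, adjusted p = 7.48e-10 and -2.09, adjusted p = 6.19e-09). Steap3, a ferrireductase, had 138 ± 8.59, 86.8 ± 2.43, and 29.3 ± 2.39 CPM and was a DEG in EASCs (log2 fold change -2.23, adjusted p = 3.55e-21). Cp overlaps Hps3 on the other strand, which had 234 to 421 counts.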

How the data were processed

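The authors sequenced paired-end reads, trimmed them, aligned them with TopHat to the rat genome, and deposited whole-number counts of reads for each of 35362 genes in 9 samples, without normalization. The submitters' processing notes name TopHat2 and rn5, while the gene positions in the table are those of rn6, which the paper's methods name. The counting tool and its strand setting are not given in the sources used here. Samples were assigned to SASCs, PASCs, and EASCs by their labels.

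The counts were filtered with filterByExpr, scaled by TMM, and fitted in one model of the 3 groups with the quasi-likelihood test of edgeR 4.0.16 in R 4.3.3, without a block, which left 14770 genes (common biological coefficient of variation 0.0685). A DEG needed a fold change of over 2 at an adjusted p under 0.05 (Benjamini-Hochberg over all genes tested). This takes the thresholds of the study, which used DEGseq, but not its test. A count of 3 corresponds to 0.104 to 0.159 CPM, which covers counting error only. The 10 genes and the companion lists were chosen with earlier results of these data known. The genes named from each companion list were at most 4 with the largest change against SASCs among DEGs whose samples did not overlap and that had at least 1 CPM in the higher group, and Nfe2l2, Keap1, and Bach1 in any case. Some genes of the companion lists are not reported here. No 2 samples of a group agreed within counting error. The fit was tested on simulated counts of 14466 genes for EASCs against SASCs. There 122 of 131 genes changed by 2-fold or more were recovered, as were 52 of 67 changed by 1.5-fold. Of the unchanged genes, 5 were called. In the data 35.5% of all genes tested rose and 34.3% fell in this comparison. The scaling under changes in so many genes was not tested.

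Alternatives were DESeq2 1.42.0, limma 3.58.1 on log2(CPM + 1), other scalings, filters, and thresholds, only the samples compared, the replicate number as a block, and leaving out each sample. Library totals without rRNA genes were added after the data had been examined.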

Additional observations from a re-analysis of the deposited data

Results flagged for a closer look

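The effects of the 2 visceral depots against SASCs differed from each other in 7 of the 10 genes (1 higher and 6 lower in EASCs, beside 16.1% and 14.5% of all genes tested), by edgeR's quasi-likelihood test of EASCs against PASCs, which is the difference of the changes since both are set against the same SASCs samples. The difference was a log2 fold change of -0.95 for Nqo1, -0.62 for Gclc, -0.28 for Srxn1, -1.01 for Sod3, -0.56 for Gpx3, and -0.22 for Cat, all lower in EASCs, and 0.41 for Hmox1, higher in EASCs. Among these, Gclc rose in PASCs and fell in EASCs against SASCs, while for the others the sign was shared or, for Srxn1, no change was detected in EASCs. Gclm, Txnrd1, and Sod2 did not pass this test. With library totals without TMM, the differences of Hmox1, Srxn1, and Cat did not pass either, and that of Cat was also lost without PASCs replicate 2. In the same setting the increase of Gclc in PASCs against SASCs was 0.07 and no longer passed. Groups of 3 samples are too small to look for single outlying samples.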

How the results depend on the processing

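The number of DEGs among the 10 genes was 5 in EASCs and 5 in PASCs against SASCs and 1 in EASCs against PASCs. Without a fold threshold it was 9, 10, and 7, and at a fold above 1.5 it was 3 in EASCs against PASCs, where 1241 of 14770 genes were called up and 704 down. The 1 DEG between EASCs and PASCs, Sod3, lay close to the threshold, and the number there was 2 with library totals without TMM and 2 with library totals without rRNA genes (650 up and 361 down, and 700 up and 365 down over all genes), and 0 with at least 1 CPM in every sample and 0 with limma. Leaving out each replicate in turn gave 5 in both comparisons with SASCs and a range of 0 to 1 in EASCs against PASCs. With library totals without TMM the sign was reversed for Gclm in EASCs (log2 fold change -0.070) and for Srxn1 in PASCs (-0.050) against SASCs. In that setting 1349 genes were upregulated and 3425 downregulated DEGs in EASCs, beside 2001 and 2103 with TMM, and in PASCs 1262 and 3165, beside 1779 and 2200. With at least 1 CPM in every sample, DEGs over all genes numbered 1127 up and 1062 down in EASCs, 1043 and 1114 in PASCs, and 283 and 135 in EASCs against PASCs, where 766 and 325 were called in the fit as reported. With limma on log2(CPM + 1) they numbered 1366 and 1280, 1200 and 1342, and 353 and 153. Of the values of the 10 genes under all alternatives, 438 kept their side of the threshold, 9 lost significance, and 1 gained it (Srxn1 in EASCs against SASCs, log2 fold change -0.40 with library totals without TMM). Among the 438, values that did not pass could change sign, as for Gclm in EASCs against PASCs (-0.149 to 0.00403). The fit with the replicate block gave 5, 5, and 1 DEGs, and same-numbered samples of different groups did not deviate together (correlations -0.0348 to 0.0380). No pairing by number was visible, which does not exclude one.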

Other observations

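Enzymes that form superoxide or hydrogen peroxide, the substrates of Sod2, Sod3, Gpx3, and Cat, differed in both directions. Of 19 such genes 16 were tested. Against SASCs 5 rose and 10 fell in EASCs, beside 35.5% and 34.3% of all genes tested, and 6 rose and 10 fell in PASCs, beside 34.6% in each direction, with median log2 fold changes of -0.77 and -1.59. Aox1, an aldehyde oxidase, had 29.1 ± 1.74 CPM in SASCs, 0.849 ± 0.0847 in PASCs, and 0.775 ± 0.165 in EASCs (SD, n = 3), with log2 fold changes of -5.09 (adjusted p = 4.59e-21) and -5.22 (adjusted p = 3.19e-21) by edgeR's quasi-likelihood test. Maob, a mitochondrial monoamine oxidase, fell from 22.9 ± 2.32 CPM to 1.51 ± 0.261 and 1.78 ± 0.204 (log2 fold change -3.94, adjusted p = 1.32e-18 and -3.67, adjusted p = 3.21e-18). Duox2, a dual oxidase, had 9.90 ± 0.811, 0.992 ± 0.181, and 1.35 ± 0.348 CPM and fell in both (log2 fold change -3.33, adjusted p = 6.79e-14 and -2.88, adjusted p = 5.25e-13).

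Nos3, the endothelial nitric oxide synthase, had 6.31 ± 0.418 CPM in SASCs, 0.558 ± 0.240 in PASCs, and 3.83 ± 1.12 in EASCs, with log2 fold changes of -3.49 (adjusted p = 9.79e-12) in PASCs and -0.72 (adjusted p = 0.00350) in EASCs against SASCs. The sum of the 7 endothelial markers took the same order, with 54.9 to 56.1, 13.9 to 17.0, and 37.8 to 40.7 CPM, but not every marker did, since Tek had mean CPM of 2.55, 8.29, and 8.07 and Cdh5 of 9.20, 1.13, and 9.76, and their part was not tested.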
